A study of Homo sapiens with 2 samples.

Results

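The glucocorticoid receptor gene NR3C1 and its neighbour ARHGAP26 lie in 1 megabase of chromosome 5 that held 20 of the 9393 peaks called for YAP-5SA in MCF10A cells. Members were selected on summit position: every peak called on chromosome 5 from 142.0 to 143.0 Mb of hg19 was taken, and that interval had itself been picked for its number of called peaks. The number is therefore a description and not a result. ARHGAP26 was placed at 142.15 to 142.61 Mb and NR3C1 at 142.66 to 142.82 Mb, bounds that are rounded to 0.01 Mb. No hg19 annotation was used here, so exons, introns and start sites could not be placed beside the peaks.

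The data are chromatin immunoprecipitation sequencing (ChIP-seq) of the human mammary epithelial line MCF10A, made to express YAP-5SA with a Flag tag. Flag-bound chromatin gave 1 ChIP library, and 1 library was made from input DNA; the input was not analysed here. The labels call the line non-transformed in one field and a breast cancer line in another, and they do not give the promoter that drove the transgene or whether the cells were a single clone. All cells grew in medium with hydrocortisone, EGF, insulin, cholera toxin and horse serum; hydrocortisone is a ligand of the glucocorticoid receptor.

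YAP is the co-activator held in check by Hippo signalling, and it reaches DNA mainly through TEAD factors, often at enhancers far from start sites. The 5SA mutant lacks the serines that LATS kinases phosphorylate and is therefore constitutively active. NR3C1 encodes a nuclear receptor that binds cortisol (hydrocortisone) and regulates genes through glucocorticoid response elements. Hydrocortisone is a standard supplement of mammary epithelial cultures. ARHGAP26, also called GRAF1, encodes a GTPase-activating protein that binds focal adhesion kinase.

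RefSeq gives 7 start sites for NR3C1 and 2 for ARHGAP26, with promoters of 300 bases each (250 before the start and 50 after it) on GRCh38, a different build from that of the peaks. The receptor gene is read on the minus strand and ARHGAP26 on the plus strand, so both run towards each other and end in the middle of the interval. The NR3C1 start sites form 2 sets: the second lies 703 bp inside the outermost, and the other 5 lie 30.2 to 32.2 kb inside it. Promoters of the outer pair had a GC content of 34.7% and 42.0%, whereas those of the inner 5 had 61.0% to 82.3%; the median over all RefSeq promoters was 58.7%. The promoters printed here are both outer starts of NR3C1, chosen because they hold the motif matches found, and the outer start of ARHGAP26 for comparison. They lie at chr5:143435463-143435762 (minus strand), chr5:143434760-143435059 (minus strand) and chr5:142770127-142770426 (plus strand) of GRCh38. Capitals mark matches to the motifs searched.
NR3C1 start site 1: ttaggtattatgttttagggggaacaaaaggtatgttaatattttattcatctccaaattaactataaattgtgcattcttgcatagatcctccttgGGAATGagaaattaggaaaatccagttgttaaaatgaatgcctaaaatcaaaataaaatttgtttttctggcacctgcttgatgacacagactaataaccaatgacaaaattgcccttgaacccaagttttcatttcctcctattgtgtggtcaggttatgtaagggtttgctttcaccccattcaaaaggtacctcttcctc
NR3C1 start site 2: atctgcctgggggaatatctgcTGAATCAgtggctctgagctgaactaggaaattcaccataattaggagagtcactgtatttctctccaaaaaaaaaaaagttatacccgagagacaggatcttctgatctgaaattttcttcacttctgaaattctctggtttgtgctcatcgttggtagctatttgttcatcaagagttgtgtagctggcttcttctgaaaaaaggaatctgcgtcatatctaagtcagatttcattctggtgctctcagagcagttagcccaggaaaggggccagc
ARHGAP26 start site 1: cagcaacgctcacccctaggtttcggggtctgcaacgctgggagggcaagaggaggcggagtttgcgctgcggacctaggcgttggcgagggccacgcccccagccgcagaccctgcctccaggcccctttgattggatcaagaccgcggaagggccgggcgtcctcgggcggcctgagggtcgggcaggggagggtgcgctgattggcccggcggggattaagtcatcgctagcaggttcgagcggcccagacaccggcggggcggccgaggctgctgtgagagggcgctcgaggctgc

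Both strands of these promoters were searched for 3 motifs: GGAATG (the core recognised by TEAD factors), TGANTCA (AP-1, a frequent partner of YAP and TEAD at enhancers) and AGAACA (1 arm of a glucocorticoid response element). GGAATG was found once, at bases 98 to 103 of the outermost NR3C1 promoter, and in 14.0% of all 35116 RefSeq promoters. TGANTCA, in which N was allowed to be any base, was found once, as TGAATCA at bases 23 to 29 of the second NR3C1 promoter. With any base at N it was in 7.71% of all promoters. AGAACA was in none of the 9 promoters of both genes, against 14.8% of all, and neither ARHGAP26 promoter held any of the 3 motifs. No 2 matches overlapped. A match is a run of letters, not a bound site, and none of these promoters could be set beside a peak.

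Across the megabase, the 20 peaks had heights from 14 to 38. Height is the authors' score at the summit, a whole number whose unit is not stated, and it is used here to rank peaks within their list. The median height was 22.5 and the mean 23.5 ± 6.08 (SD over 20 peaks), beside a median of 24 and a mean of 25.8 ± 9.61 (SD over 9373 peaks) in the rest of the list. In the rest of chromosome 5 the median was 24 and the mean 26.9 ± 10.35 (SD over 735 peaks). At or above the list's median height of 24 were 9 of the 20 peaks, or 45.0% (exact 95% interval 23.1 to 68.5), where the background over all 9393 peaks was 50.7%. None of the 20 had a height of 40 or more (exact 95% interval 0 to 16.8%), beside 8.67% over all peaks. Both backgrounds lie inside the intervals, which cover counting error only, since peaks of 1 library are not replicates. The tallest of the 20, at 38, was higher than 89.4% of all peaks.

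**Figure D1:**
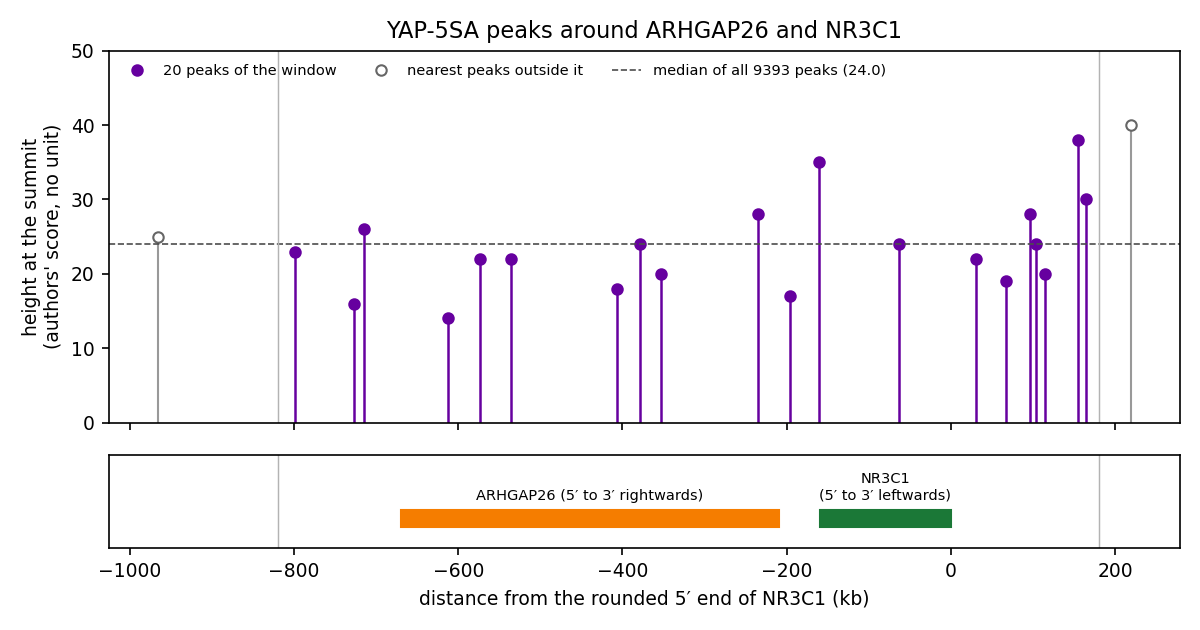
Height at the summit (authors' score, no unit) of the 20 peaks (filled) and the nearest peak on each side (open), against the distance in kb from the rounded 5′ end of NR3C1; grey verticals are the edges of the interval, the dashed line is the median of all 9393 peaks (24), and bars below give the rounded extents of both genes. One filled point lies over the NR3C1 bar, 1 at its left edge and 7 to its right, while the ARHGAP26 bar carries 7.

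Within the rounded extent of NR3C1, 160 kb long, lay 1 summit. It was at 142756864, in the peak chr5:142756363-142757147, with a height of 24 and a width of 785 bp. This height equals the median of the whole list, while 84.8% of all peaks were narrower. The summit lay 63.1 kb inside the gene's rounded 5′ end. Another peak, chr5:142659187-142659635, had its summit 544 bp outside the rounded 3′ end, less than the rounding of that bound, so whether it lies in NR3C1 cannot be told from these bounds. With a height of 35 it was the second tallest of the 20, and 85.1% of all peaks were lower; with 449 bp it was also the narrowest of them.

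The 5′ end of NR3C1 fell in a stretch without peaks. No summit was called for 93.9 kb, from 142756864 to 142850784, and the rounded 5′ end at 142.82 Mb lay 30.8 kb short of the far side. Neighbouring summits were a median of 37.8 kb apart in this interval and 108.9 kb apart in the rest of chromosome 5. A stretch of this length is therefore not unusual for the chromosome. On GRCh38 the inner start sites lie 30.2 to 32.2 kb inside the outermost one, less than the 63.1 kb between the rounded 5′ end and the peak inside the gene, but they were not placed on hg19. The stretch from the peak at the rounded 3′ end to the next summit was 97.4 kb long, of which 96.9 kb lay inside the rounded bounds of NR3C1.

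Beyond the 5′ end of NR3C1, 7 peaks lay in the 180 kb to the edge of the interval, which is 3.89 per 100 kb. Within NR3C1 the density was 0.625 per 100 kb, from 1 summit, with the peak at its rounded 3′ end left out. The gap between both genes, with 2 summits, was denser than this upstream stretch, while ARHGAP26 and the stretch before it were less dense. Summits of the 7 upstream peaks were 30.8 to 163.9 kb from the rounded 5′ end of NR3C1. The nearest, chr5:142850549-142851141, had a height of 22. It was followed by chr5:142886344-142887376, with a height of 19 and a width of 1033 bp. Both were below the list's median height, though the second was wider than 95.6% of all peaks.

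Among the remaining 5 peaks upstream of NR3C1 were the shortest distances between neighbouring summits of the 20, though a distance of 41.0 kb also lay among them. A group of 3 spanned 18.4 kb, chr5:142915773-142934196, with summits 7.2 and 10.7 kb apart and heights of 28, 24 and 20 in order away from the gene. A pair spanned 9.5 kb, chr5:142974680-142984146, with heights of 38 and 30. The first of this pair was the tallest and the widest of the 20: its height of 38 exceeded that of 89.4% of all peaks, and its width of 1488 bp exceeded that of 99.4%. Its summit lay 344 bp from the start of the interval and 1143 bp from the end, so most of its width was on the side away from NR3C1. The other peak of the pair was only 508 bp wide.

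The run of peaks upstream of NR3C1 did not stop at the edge of the interval. The last member lay 16.1 kb inside the edge at 143.0 Mb and had a height of 30, and the first peak outside lay 39.3 kb beyond it, at chr5:143039099-143039721, with a height of 40. Counting this peak, 8 summits fell in 188.5 kb, and their heights ran from 19 to 40 around a median of 26. The next peak outside was 301.2 kb from the edge and also had a height of 40. At the other end, the first member lay 21.4 kb inside the edge at 142.0 Mb with a height of 23, and the nearest peak outside lay 145.8 kb before it, with a height of 25. In the RefSeq gene order on GRCh38, the first protein-coding gene that starts beyond the end of NR3C1 is HMHB1. The protein-coding entry LOC128966704 is listed between them by its start, which lies within the extent of NR3C1. Genes for lncRNA are also listed between NR3C1 and HMHB1, and the position of the run relative to all these genes was not determined.

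ARHGAP26 held 7 summits within its rounded extent of 460 kb, or 1.52 per 100 kb. Their heights were 14, 22, 22, 18, 24, 20 and 28 in order from the 5′ to the 3′ end, with a median of 22 and a mean of 21.1 ± 4.45 (SD over 7 peaks). Of these 7, 2 were at or above the median of the list (28.6%, beside 50.7% of all peaks). They were spread along the gene: neighbouring summits lay 26.0 to 129.4 kb apart, and none was within 10 kb of another. Widths were 507 to 766 bp, and none reached 900 bp, beside 8.45% of all peaks.

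The peak nearest the 5′ end of ARHGAP26, chr5:142206714-142207308, lay 57.1 kb inside the gene and was the lowest of the 20, with a height of 14; 2.98% of all peaks were lower. Upstream of the gene, the nearest peak was chr5:142105260-142106429, which lay 44.3 kb before the rounded 5′ end, with a height of 26 and a width of 1170 bp. The stretch without a summit around this 5′ end was 101.4 kb long, beside a median distance of 108.9 kb between neighbouring summits in the rest of chromosome 5. At neither gene did a summit lie closer than 30.8 kb to the rounded 5′ end. Near the 3′ end of ARHGAP26 the tallest of its 7 peaks, chr5:142584700-142585465 with a height of 28, lay 24.9 kb inside the gene.

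Between both genes, a gap of 50 kb into which both 3′ ends face, were 2 summits. One, chr5:142623419-142624199, had a height of 17 and lay 13.7 kb past the end of ARHGAP26; the other was the peak of height 35 at the rounded 3′ end of NR3C1 described above. Before ARHGAP26 were 3 more peaks, with heights of 23, 16 and 26 in order towards the gene. The protein-coding gene listed next on that side is FGF1, which encodes a fibroblast growth factor; its hg19 bounds were not used here, so these peaks are not placed in or out of it. In all, 8 summits lay inside the rounded extents of both genes, with a median height of 22, and 12 lay outside them, with a median of 23.5. All 3 peaks of 900 bp or more were among those 12.

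Over the 20 peaks, 15.0% (exact 95% interval 3.21 to 37.9) were 900 bp or wider, beside 8.45% of all peaks, and the median width was 617 bp, beside 611 bp in the rest of the list. Spearman's correlation between height and width was 0.03 across the 20 peaks, and 0.15 across all 9393, both given as descriptions of peaks that share 1 library. The 3 widest peaks, 1 upstream of ARHGAP26 and 2 upstream of NR3C1, differed in height, with 38 at 1488 bp, 26 at 1170 bp and 19 at 1033 bp.

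Set among all megabases, this one had rank 3 by number of peaks, a place that depended on where the bins begin. Of 2375 bins of 1 Mb with at least 1 peak, 2 held more than its 20, and the median was 3. With bins shifted by 0.5 Mb its peaks were divided between a bin of 12 peaks, at rank 41, and a bin of 16 peaks, at rank 12. Both of these bins also took in peaks from outside the interval. Among peaks higher than the list's median height it had 6 and rank 51. On chromosome 5, the 10 bins around it, 5 on each side, held 4 to 8 peaks each, and the median of its 181 bins from the first to the last summit, empty ones included, was 3. The megabase before it had 5 peaks with a median height of 25, and the megabase after it had 8 with a median of 26. These counts were not corrected for DNA copy number, and no test was made because the interval was chosen for its count.

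**Figure D2:**
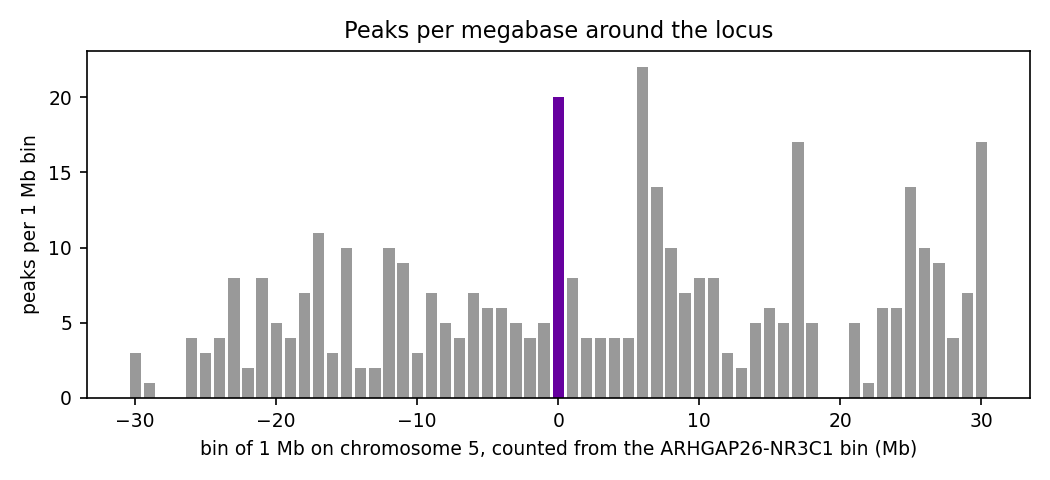
Number of peaks in each 1 Mb bin of chromosome 5, up to 30 Mb on either side of the bin that holds ARHGAP26 and NR3C1 (purple, at 0). That bin has 20 peaks and the 5 bins on each side of it have 4 to 8.

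The other 2 bins with 20 or more peaks had taller peaks at the median and at the maximum. Heights here had a median of 22.5 and a maximum of 38, beside a median of 33 and a maximum of 59 over the 23 peaks in the bin of chromosome 8 that starts at 128 Mb. In the bin of chromosome 5 that starts at 148 Mb, 22 peaks had a median of 31 and a maximum of 76. At or above the list's median were 45.0% of the peaks here, 73.9% in the bin of chromosome 8 and 86.4% in the other bin of chromosome 5. A height of 40 or more was reached by 0 of 20 peaks here, 5 of 23 in the bin of chromosome 8 and 6 of 22 in the other bin of chromosome 5. The bins were picked for their counts, and their heights are compared without a test.

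**Figure D3:**
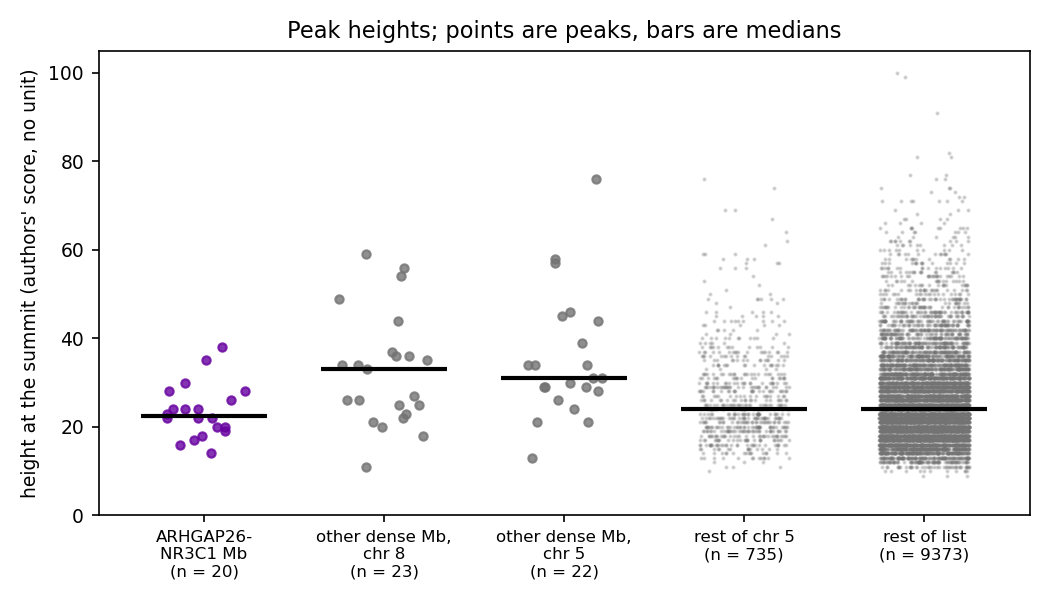
Height at the summit (authors' score, no unit) of every peak in the ARHGAP26-NR3C1 megabase (purple), the other 2 bins with 20 or more peaks, the rest of chromosome 5 and the rest of the list; points are peaks, spread sideways for legibility, and bars are medians. The purple points lie between 14 and 38, and their median of 22.5 is the lowest of the 5.

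In spacing, the median and the smallest distance between summits were larger here than in these 2 bins, but the largest distance was smaller. Neighbouring summits were a median of 37.8 kb apart here, beside 23.3 kb in the bin of chromosome 8 and 15.4 kb in the other bin of chromosome 5. The smallest distance was 7.2 kb here, 1.3 kb in the bin of chromosome 8 and 1.1 kb in the other bin of chromosome 5. The largest was 129.4 kb here, 205.0 kb in the bin of chromosome 8 and 228.1 kb in the other bin of chromosome 5. With intervals at most 10 kb apart joined, 5 of the 20 peaks (exact 95% interval of the share 8.66 to 49.1%) were in a group, against a background of 20.5% of all peaks. This count depended on the distance: joined at 5 kb, 0 of the 20 were in a group, beside 13.7% of all peaks. All 5 grouped at 10 kb were upstream of NR3C1. Joined at 10 kb, the share in the bin of chromosome 8 was 30.4%, and in the other bin of chromosome 5 it was 59.1%.

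Of the 15 bins with 15 or more peaks, a limit set after the counts were known, the median height of this one was equalled by 1 other and undercut by 1, and 12 were higher. Its median distance between summits was larger than that of 12 others and smaller than that of 2. The longest distance between neighbouring summits, 129.4 kb, was shorter here than in all 14 others, where it ran from 148.2 to 385.3 kb. A larger number of peaks in the same length can shorten distances, the longest one too, and this was not tested. In the bins of 23 and 22 peaks the longest distances were 205.0 and 228.1 kb. Besides this bin, 2 of the 14 others had no peak of 40 or more.

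**Figure D4:**
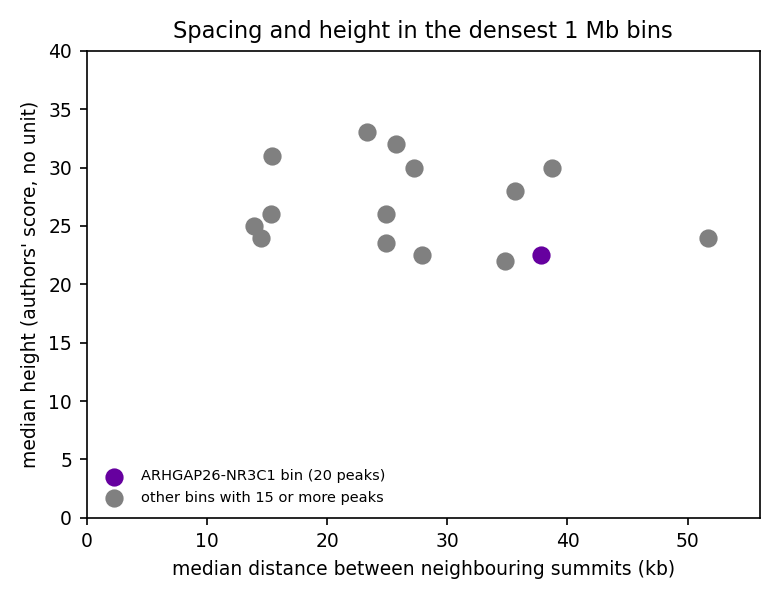
Median height (authors' score, no unit) against the median distance between neighbouring summits (kb) for the 15 bins of 1 Mb with 15 or more peaks, 1 point each; the ARHGAP26-NR3C1 bin is purple. It lies at 37.8 kb and 22.5, towards the lower right, with 2 bins at larger distances and 1 at a lower median height.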

How the data were processed

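The peak list, from 1 Flag ChIP library of MCF10A cells with YAP-5SA, was analysed. Per the submitters' processing notes, BWA 0.6.1, MACS and hg19 were used; no source used here gives the version, threshold or control of MACS. A summit track gives positions with a score deposited by the authors, called height, and an interval track gives starts and ends, per the file headers; both were joined by order. Summits of the 20 members lay on multiples of 32 bp (13) or 16 bp from one (7), so positions are coarse. Read depth is unknown.

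Members and comparisons were chosen with earlier results of these data known. Gene bounds came from the rule that defined the members; heights of all 20 peaks are given, and NR3C1, ARHGAP26 and their neighbours in gene order are named. Interval starts are 1-based. Bins were 1 Mb. Exact (Clopper-Pearson) 95% intervals cover counting error only. No p-value was computed, since there is 1 library. Counting and grouping were tested on simulated data. Promoters and gene order came from RefSeq (GRCh38.p14), both genes matched, and GRCh38 coordinates were not set on hg19. The gene lists planned for an hg19 annotation were not used here. Alternatives were other bins, gene extents, joining distances and a height limit. Work used Python 3.11.15, numpy 2.4.6, pandas 2.3.3, scipy 1.17.1 and matplotlib 3.10.9.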

Additional observations from a re-analysis of the deposited data

How the results depend on the processing

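No paired analysis was possible because the data come from 1 ChIP library and the labels give no shared replicate numbers, and no library could be left out. Of 17 alternatives, 8 left the value within 1.5 times the reported count or inside its interval. They were the median height, the share at or above the list's median, and the count by interval overlap or with joined peaks. The others were ARHGAP26 with wider bounds and groups joined at 25 kb (7 of 20). The count by interval overlap, and the count and median height with joined peaks, could not have changed. No peak reached across an edge of the interval, and none lay close enough to another to be joined. These outcomes are therefore no evidence of stability. Among peaks higher than the list's median, the interval held 6 peaks and ranked 51 among bins, with 1 peak in ARHGAP26 and 0 in NR3C1; fewer peaks were counted by construction. Bins shifted by 0.5 Mb divided the 20 peaks and also took in peaks from outside the interval. The bin that began lower had 12 peaks and ranked 41, while the one that began higher had 16 and ranked 12. NR3C1 held 2 summits when its extent was widened by 10 kb and 4 when widened by 50 kb, so the single summit within it depends on its rounded bounds. Joining at 5 kb left 0 of the 20 in groups, beside 13.7% of all peaks. Depth is unknown and the list rests on 1 library, which limits all of these values.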
